A study of Solanum lycopersicum with 10 samples.

Results

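Leaves of tomato plants that carry an antisense copy of an Rboh gene were compared between unwounded and wounded plants, on 5 of the 10 arrays of the series. These are the arrays whose titles name the mutant: 3 of the group mutant systemic wounded and 2 of the group mutant control. All 5 therefore share the antisense gene, and the groups differ in whether the plant had been wounded. The arrays are called wounded 1, 2 and 3 and control 2 and 3 here, by their titles. Wounded is short for the titles' systemic wounded throughout. The descriptions number the same controls 1 and 2. Not given in the sources used here were the line, the promoter of the antisense gene, the age of the plants, the time after wounding and any pooling of plants. The labels do not tell whether the replicates of a group were different plants, and the p-values cover the spread between these arrays alone, which may be technical. Each array set total RNA of 1 leaf sample against a pool of all samples in the series.

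When a tomato leaf is wounded, undamaged leaves of the same plant also switch on defence genes, among them genes for proteinase inhibitors that hinder the digestion of feeding insects. The peptide systemin and the hormone jasmonate take part in this systemic response. Rboh genes encode NADPH oxidases of the plasma membrane, which make reactive oxygen species outside the cell, and the hydrogen peroxide that forms from them is known as a signal for later wound genes. The comparison asks how leaf transcripts answered wounding in plants in which such an oxidase gene is targeted.

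The values were log2 ratios with each array's median at 0, so a value of 0 stands at the middle of that array and not at a known level. The table held 11347 rows, of which 193 marked as failed and 1 blank were dropped, which left 11153. Nearly all of these are named by a clone identifier that the files do not pair with a gene, and 0 of them were found in RefSeq's table of tomato genes (assembly SLM_r2.1). Only 2 rows carry a gene name. The antisense target and the wound defence genes could therefore not be picked out, and a ratio to a pool gives no level with which to check the tissue. A gene can be present as several clones, so clones are not independent of each other.

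Which way the ratio runs is not settled. The labels give the channels of the sample and the pool, but neither the dyes nor which channel was divided by the other. Directions are given for sample over pool, and turning the sign exchanges higher and lower everywhere. Among the 5 arrays 34 clones lay below -1 on every array and 0 lay above 1 on every array. The 10 correlations between these arrays, across clones, ran from -0.12 to 0.40. Outside this set, wild type control replicate 3 correlated below 0 with all 5, from -0.43 with wounded 3 to -0.04 with control 2. Wild type control replicate 1 correlated at 0.45 with control 2 and from -0.29 to 0.09 with the rest of the 5. Control 2 thus stood apart in that comparison. The other wild type arrays correlated with the 5 from -0.29 to 0.15.

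The arrays did not pair best within their groups. Over all clones the controls correlated at 0.31, while control 2 correlated at 0.40 with wounded 1 and control 3 at 0.38 with wounded 3. The lowest value, -0.12, belonged to control 2 and wounded 2. Among the 3 wounded arrays the correlations were 0.19, 0.33 and 0.27. Over the 10990 clones outside the 2-fold sets described below, the controls correlated at 0.22. There control 2 correlated at 0.53 with wounded 1, and control 3 at 0.41 with wounded 2 and 0.43 with wounded 3. Wounded 1 and wounded 2 correlated at 0.17. What these correlations reflect was not tested. These are descriptions across clones, all measured against the same pool.

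A small set of clones was at least 2-fold higher in leaves of the systemic wounded group, and fewer were lower. By group means, 143 clones (1.28% of all rows) were at least 2-fold higher with all 3 wounded arrays above both controls, and 20 clones (0.179%) were at least 2-fold lower with all 3 wounded arrays below both controls. At least 4-fold, the counts were 67 higher (0.601%) and 0 lower. At least 8-fold, 29 were higher (0.26%), and 1 exceeded 16-fold (0.00897%). With the sign turned, the counts become 20 higher and 143 lower at 2-fold, and 0 higher and 67 lower at 4-fold. Most clones hardly moved: 92.3% lay within 0.5 of a log2 change of 0, and the middle 50% of all clones ran from -0.17 to 0.16. The changes reached 4.50, 22.7-fold, on the high side and -1.36, 2.56-fold, on the low side.

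No single clone passed in the fit of the 2 group means alone. In limma's fit to the 5 arrays, 0 of 11153 clones (0%) had a Benjamini-Hochberg adjusted p under 0.05, and the smallest adjusted p was 0.0742. An unadjusted p under 0.05 was reached by 375 clones (3.36%), of which 278 were higher (2.49%) and 97 lower (0.87%). A share of 5% would be 557.65 clones. Turning the sign makes this 97 higher and 278 lower. Arrays did not overlap between the groups at any size of change in 15.2% of clones, 7.55% higher and 7.66% lower. With 3 arrays against 2, such separation is frequent by chance alone. The lean to higher values was seen in the size of the changes and not in this count. The median SE was 0.28 over all rows, 0.48 over the 143 clones and 0.68 over the 67 clones, so the clones of larger change also scattered more.

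The count of calls changed with the arrays kept and with the way of fitting. Without control 3 it was 60, all higher, and 59 of these were among the 143. That fit keeps 1 control, whose spread is taken to be that of the wounded arrays. Without wounded 1 it was 7 and without wounded 2 it was 1, all higher, and it was 0 without control 2 or without wounded 3. Quantile normalization called 16 clones, scale normalization 4, and limma's trend and robust setting 1, all higher and all among the 143. All of these become lower when the sign is turned. With a replicate block by title number 146 clones were called (139 higher, 7 lower). By description number 113 were called (112 higher, 1 lower). Neither numbering is shown to pair the arrays, and either block leaves 1 residual degree of freedom.

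**Figure D1:**
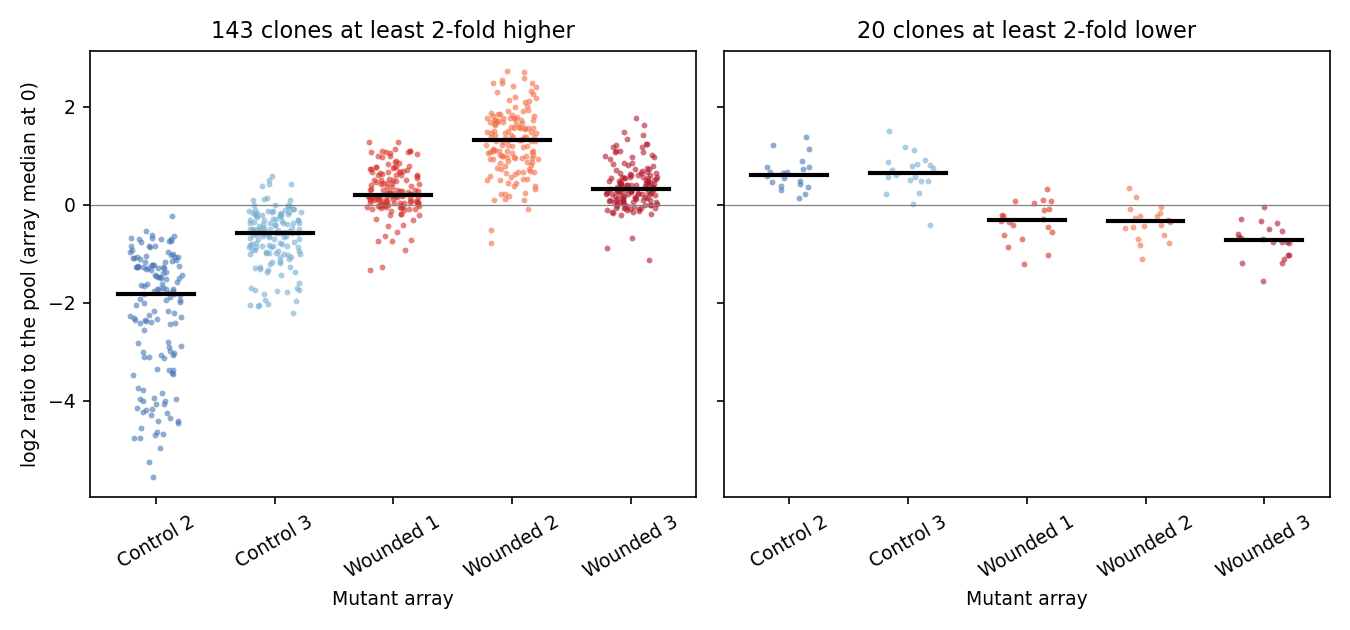
Log2 ratio to the pool on each of the 5 mutant arrays, for clones without overlap between the groups. Shown are clones at least 2-fold higher (left, 143) and at least 2-fold lower (right, 20) in the systemic wounded group. Each point is a clone and each black line is the median of an array. On the left the medians climb from -1.83 on control 2 and -0.58 on control 3 to 1.32 on wounded 2, and on the right both controls sit near 0.6.

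The 2 clones with the widest gap between the groups on the high side came first among the clones described singly. Clone cLED8P10 stood at -2.25 on control 2 and -1.76 on control 3, and at 0.77, 2.59 and 0.60 on wounded 1, 2 and 3. The controls were near each other, and the lowest wounded array was 5.14-fold above the higher control. The wounded mean was 1.32 ± 1.11 (SD, n = 3), and by limma the log2 change was 3.33 with an SE of 0.52 and an adjusted p of 0.134. Wounded 2 stood far above the other wounded arrays.

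Clone cLED19A6 had the highest mean change of all clones. It stood at -4.68 on control 2 and -1.97 on control 3, and at 0.60, 2.72 and 0.23 on wounded 1, 2 and 3. All wounded arrays were above both controls, but the controls themselves were further apart than wounded 1 was from control 3. The control mean was -3.32 ± 1.91 (SD, n = 2) and the wounded mean 1.18 ± 1.34 (SD, n = 3). Limma gave this change of 4.50, or 22.7-fold, an SE of 0.81 and an adjusted p of 0.151. Against control 2 alone the change was 5.86, and against control 3 alone it was 3.15.

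The smallest p-values belonged to clones of smaller change whose arrays agreed better. They were singled out after their values were seen. Clone cLED6B5 stood at -1.24 and -0.49 on control 2 and 3, and at 1.29, 1.63 and 1.49 on the wounded arrays in order. The wounded mean was 5.04-fold higher, a log2 change of 2.33 with an SE of 0.29 (adjusted p = 0.0742 by limma). For cLEC6H7 the controls were at -1.30 and -0.93, and the wounded arrays at 0.71, 1.13 and 1.02. The wounded mean was 4.18-fold higher, a log2 change of 2.06 with an SE of 0.27 (adjusted p = 0.0742 by limma). In both clones the 3 wounded arrays lay close to each other, and neither clone passed in this fit.

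The 2 clones with the widest gap on the low side had small changes and close controls, which that choice favours. Clone cLES3P5 stood at 0.68 on control 2 and 0.70 on control 3, and at -0.45, -0.34 and -1.02 on wounded 1, 2 and 3. The wounded mean was 2.45-fold lower, a log2 change of -1.29 with an SE of 0.28 (adjusted p = 0.224 by limma). Clone cLED32F16 stood at 0.67 and 0.80 on control 2 and 3, and at -0.30, -0.28 and -0.66 on the wounded arrays in order. The wounded mean was 2.21-fold lower, a log2 change of -1.15 with an SE of 0.26 (adjusted p = 0.243 by limma). In both clones wounded 3 was the lowest array. With the sign turned, these clones would be higher and the 4 before them lower.

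**Figure D2:**
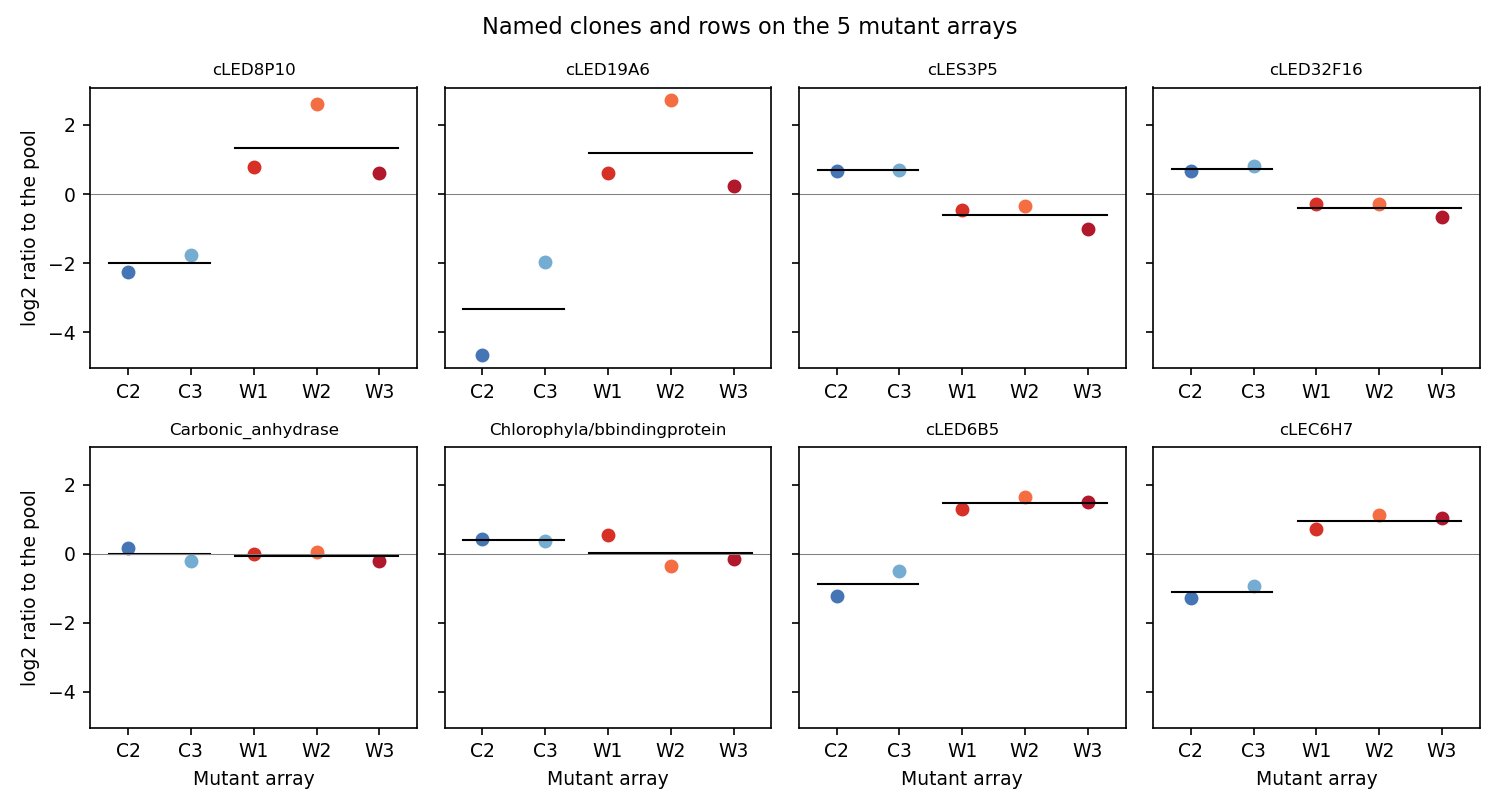
Log2 ratio to the pool of the 6 clones and 2 named rows on the 5 mutant arrays (C, control; W, wounded). Black lines are group means. The controls of cLED8P10 lie close together at -2.25 and -1.76, those of cLED19A6 far apart at -4.68 and -1.97, and the named rows overlap between the groups.

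Both rows with a gene name overlapped between the groups. Carbonic_anhydrase is named for the enzyme that interconverts carbon dioxide and bicarbonate, and leaf chloroplasts are rich in it. It stood at 0.17 and -0.21 on control 2 and 3 and at -0.02, 0.05 and -0.21 on the wounded arrays in order, a change of -0.04 with an SE of 0.26 (adjusted p = 1 by limma). Chlorophyla/bbindingprotein is named for the proteins that hold chlorophyll in the light-harvesting antenna. It stood at 0.43 and 0.36 on the controls and at 0.55, -0.35 and -0.16 on the wounded arrays, a change of -0.38 with an SE of 0.31 (adjusted p = 1 by limma). Wounded 1 lay above both controls for this row, and the other wounded arrays lay below them.

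The 2 controls gave different sizes for the same clones. Against control 2 alone, 280 clones (2.51%) were at least 2-fold higher with all 3 wounded arrays above it, and against control 3 alone 114 (1.02%). At least 4-fold the counts were 106 (0.95%) and 18 (0.161%), and at least 8-fold 58 (0.52%) and 2 (0.0179%). On the low side the 2-fold counts were 75 (0.672%) and 43 (0.386%), and the 4-fold counts 0 and 2 (0.0179%). With the sign turned, higher and lower exchange in each of these counts. The higher clones thus outnumbered the lower ones against either control, and their number past 4-fold was lower against control 3.

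Over the 143 clones the median log2 change was 1.91 from the mean of the controls, 2.61 against control 2 alone and 1.25 against control 3 alone. Control 3 lay above control 2 in 140 of the 143, where over all clones it did so in 50%. The controls were at least 2-fold apart in 91 of the 143, with control 3 higher each time, and over all clones control 3 was higher by at least 2-fold in 2.89% and control 2 in 2.37%. Of the 55 clones in which control 3 exceeded control 2 at least 4-fold (0.493%), 43 were among the 143. Only 2 clones were 4-fold apart the other way (0.0179%). In the 20 lower clones the medians of the controls were close, at 0.62 and 0.66, and control 3 was above control 2 in 12. Clone by clone, the median absolute difference between these controls was 0.42, beside 0.32 over all clones. They were at least 2-fold apart in 1 of the 20 with control 3 higher and in 1 with control 2 higher. What set the controls apart in the higher clones was not tested.

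Of the 143 clones, 52 had controls less than 2-fold apart. Their median log2 change was 1.46, from 1.00 to 3.33, and it was 1.72 against control 2 alone and 1.22 against control 3 alone. The other 91 had a median change of 2.39, with 3.26 against control 2 and 1.32 against control 3. Against control 3 the medians of these sets were thus close, while against control 2 they were far apart. The sets were formed from the same values, and no test was made between them.

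**Figure D3:**
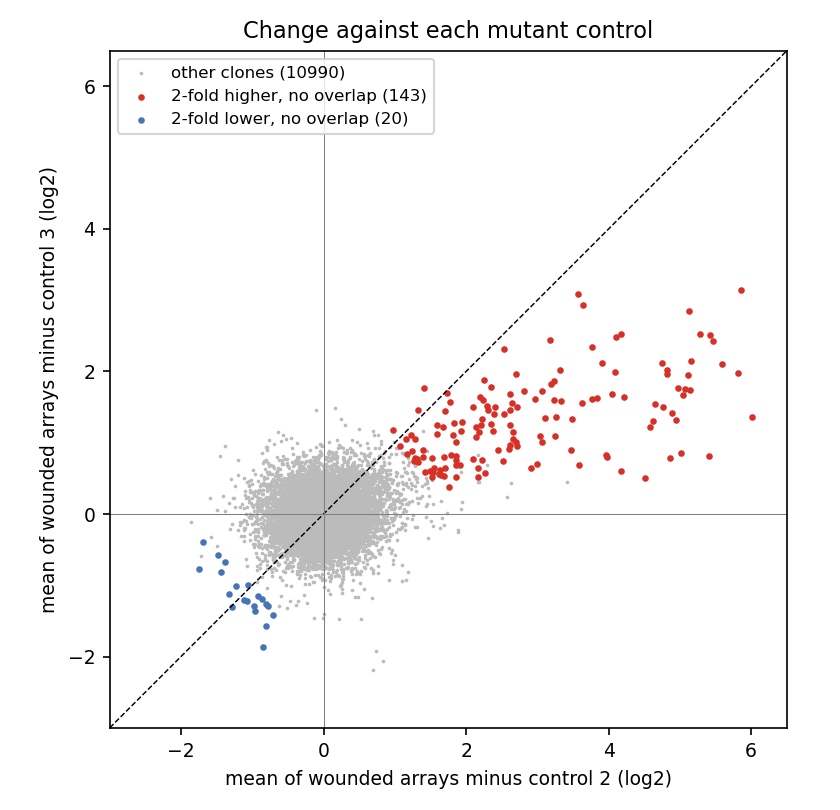
Mean of the 3 wounded arrays minus control 2 (horizontal) and minus control 3 (vertical), on the log2 scale, for all 11153 clones. The dashed line marks equal changes. Most of the 143 higher clones (red) lie below it, with medians of 2.61 and 1.25, and the 20 lower clones (blue) lie on both sides.

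Deep values were concentrated on control 2. Below a log2 ratio of -3 there were 57 clones on control 2, 7 on control 3, and 8, 5 and 8 on wounded 1, 2 and 3. Of the 57, 42 were among the 143 (73.7% of the 57 and 29.4% of the 143). Over the 57 the medians were -3.98 on control 2, -1.32 on control 3, and 0.04, 0.95 and 0.15 on wounded 1, 2 and 3. In the 15 that were not among the 143, all 3 wounded arrays were below -1 as well. Signal intensities were not analysed here, so how well such low ratios were measured is unknown.

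The wounded arrays also differed among themselves, and wounded 2 stood highest. Over the 143 clones the array medians were -1.83 on control 2, -0.58 on control 3, 0.20 on wounded 1, 1.32 on wounded 2 and 0.32 on wounded 3. Wounded 2 was the highest wounded array in 125 of the 143, wounded 3 in 17 and wounded 1 in 1, where over all clones the shares were 33.8%, 31.9% and 34.3%. In 52 of the 143 wounded 2 was at least 2-fold above both other wounded arrays, wounded 3 was in 1 and wounded 1 in 0, beside 1.09%, 0.789% and 0.439% of all clones. In 123 of the 143, wounded 2 was the highest and control 2 the lowest of the 5 arrays. In the 20 lower clones the medians were -0.32, -0.34 and -0.73 on wounded 1, 2 and 3, and wounded 3 was the lowest in 14 of the 20, where over all clones it was the lowest in 33.2%. The 143 and the 20 were chosen from these same values, so the counts describe them and test nothing.

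Each wounded array lay at least 4-fold above control 2 in more clones than it lay that far below. At this size, 85 clones were higher and 0 lower on wounded 1, 167 and 7 on wounded 2, and 100 and 5 on wounded 3. Against control 3 the counts were 10 higher and 7 lower on wounded 1, 69 and 2 on wounded 2, and 11 and 1 on wounded 3. Replicates set the scale for these counts: control 3 against control 2 gave 55 higher and 2 lower, wounded 2 against wounded 1 gave 23 and 3, wounded 3 against wounded 1 gave 2 and 3, and wounded 3 against wounded 2 gave 7 and 21. Against control 2 the higher counts of all 3 wounded arrays thus exceeded the 55 between the controls, a count that itself involves control 2. Against control 3 only wounded 2 exceeded 55 higher, and wounded 1 and wounded 3 were below it. At least 2-fold, the counts against control 2 were 261 higher and 106 lower on wounded 1, 502 and 369 on wounded 2, and 495 and 275 on wounded 3. Against control 3 they were 251 and 262, 280 and 98, and 275 and 101. Pairs of 1 group gave counts of like size. Control 3 against control 2 gave 322 and 264, and wounded 2 against wounded 1 gave 448 and 239. Wounded 3 gave 346 and 201 against wounded 1, and 398 and 230 against wounded 2. These pairs share arrays with each other, and turning the sign exchanges higher and lower in all of them.

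**Figure D4:**
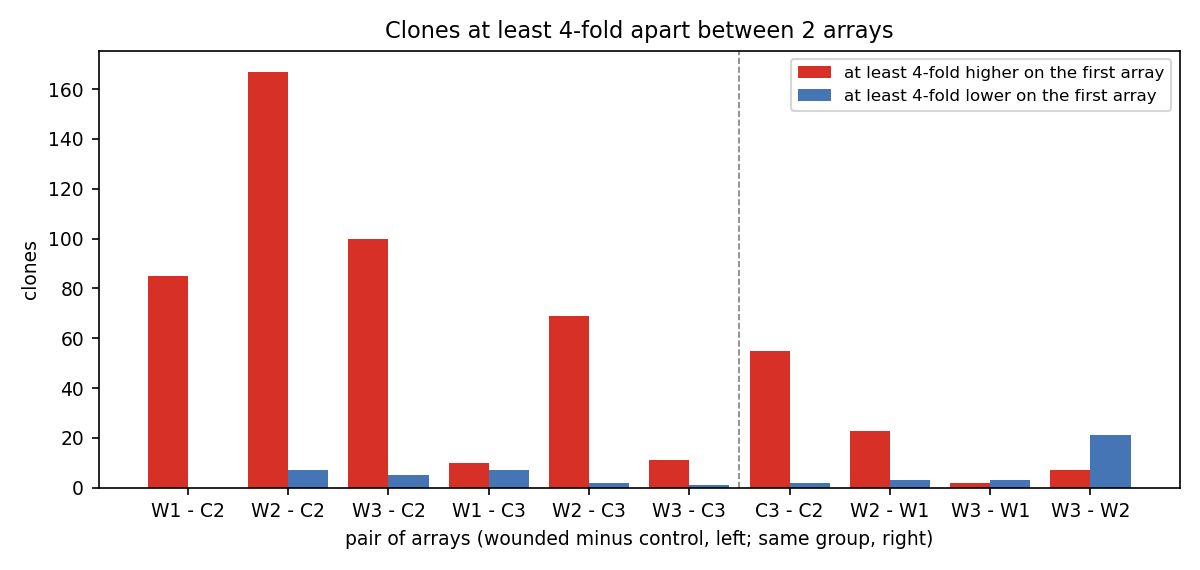
Number of clones at least 4-fold higher (red) or lower (blue) on the first array of each pair than on the second. The 6 pairs on the left set a wounded array against a control and the 4 on the right compare arrays of 1 group. The highest count is 167, for wounded 2 against control 2, and the controls themselves differ at 55 clones in 1 direction and 2 in the other.

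A stricter count asks that the nearest arrays of the groups be at least 2-fold apart. This held for 50 clones on the high side (0.448%) and 1 on the low side (0.00897%), which was cLES3P5, and the counts exchange when the sign is turned. The median log2 change of the 50 was 2.99, with 3.84 against control 2 alone and 1.84 against control 3 alone. Their array medians were -3.24 and -1.02 on control 2 and 3 and 0.31, 1.45 and 0.36 on wounded 1, 2 and 3. At least 4-fold between the nearest arrays, 3 clones were higher (0.0269%) and 0 lower. Here too none had an adjusted p under 0.05 in the fit of the 2 group means. Unadjusted p-values were under 0.05 in all 50, which their choice brings with it.

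Clone names carry the only other annotation in the files, the letters with which they begin. The labels do not say what the letters mean. Of the 143 higher clones 74 begin with cLED, which is 51.7% of them, while cLED clones make up 22.5% of all rows. At 2.95% of 2512 cLED clones and 2.57% of 973 cLET clones (25 clones), these names had a larger share of higher clones than all rows together, at 1.28%. The 2212 cLEC clones had 15, a share of 0.678%. Between 0.281% and 0.863% of the cLEF, cLEG, cLER, cLEM, cLES, EST and cLEN clones were higher, as were 2 of 150 cTOD clones, 0 of 145 cLEI clones and 0 of 118 cTOF clones. Of the 20 lower clones, 10 begin with cLED and 3 with cLET. These are 0.398% of cLED and 0.308% of cLET clones, beside 0.179% of all rows. Both names thus had larger shares than all rows in either direction, but on the low side theirs were not the largest. The share of lower clones was 0.41% for EST (1 of 244) and 0.645% for the other names together (3 of 465). These low-side counts are small.

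The higher cLED clones were spread over the numbers that follow the letters. Among the 10 numbers with at least 100 clones, the share of higher clones ran from 1.92% to 5.37%. The median log2 change of all cLED clones was 0.02 and that of all cLET clones -0.07, beside -0.01 over all rows, so the middle of each name group lay near that of all rows. Several clones of the same name group may stand for 1 gene, and no test was made on these shares.

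**Figure D5:**
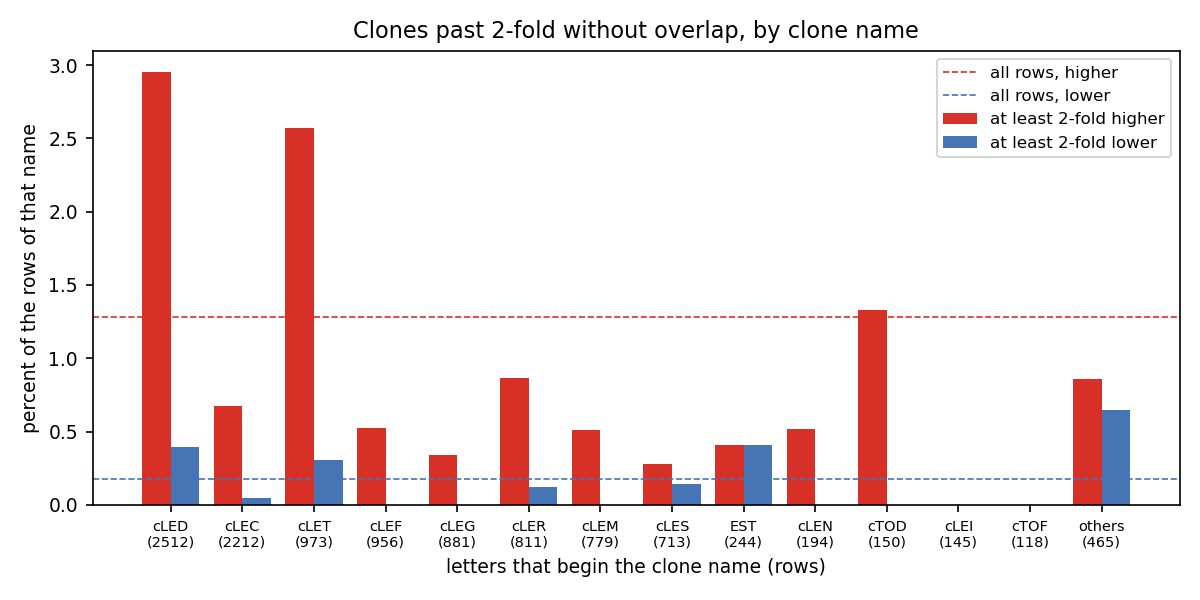
Percent of the clones of each name group at least 2-fold higher (red) or lower (blue) in the systemic wounded group without overlap. Brackets give the number of rows. Dashed lines give the shares over all rows, 1.28% higher and 0.179% lower. The tallest red bars are cLED at 2.95% and cLET at 2.57%.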

How the data were processed

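The deposited values of 10 two-colour arrays were read, and the 5 mutant arrays were used. The unit was read from the deposited values: taken as log2, they gave ratios with 3 decimals in 99.7% to 100.0% of rows by array, as rounded (tolerance 0.02 thousandths). Per the labels, channel 2 held the leaf sample and channel 1 the pool. Not given in the sources used here were the authors' background correction, image software, dyes and scaling. Deposited array means ran from -0.0037 to 0.0031.

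Failed and blank rows were dropped and each array's median over the 11153 rows left was set to 0. A model with 2 group means was fitted by lmFit and eBayes of limma 3.58.1 under R 4.3.3, two-sided, with Benjamini-Hochberg adjustment over all rows, on 3 residual and 7.21 prior degrees of freedom. A clone was called at an adjusted p under 0.05. An exact test over 3 and 2 arrays cannot reach that threshold. Counts of fold changes without overlap are descriptions. Clones were named by the widest gap between the groups (2 a direction), plus the rows with a gene name and the 2 smallest p-values, the last chosen after seeing the values. The members, lists and rules were chosen with earlier results of these data known. The fit was also run on simulated arrays with independent noise, which holds no effects shared between arrays, so that run does not test for them. The precision is limited by the number of arrays. Signal over background is unknown. Plots used matplotlib 3.10.9.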

Additional observations from a re-analysis of the deposited data

How the results depend on the processing

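Where no clone was called for wounding, quantile normalization called 16, scale normalization 4, trend with robust eBayes 1 and an adjusted p under 0.1 called 2, all higher, beside 0 to 60 with an array left out. They stayed at 0 without centring, with array weights, against a minimum change of 1.2-fold, with failed rows kept, without clones at a commonest value, and in a fit to all 10 arrays, where the wild type arrays add only to the estimate of the spread. With a replicate block by title number there were 146 calls (139 higher, 7 lower), and by description number 113 (112 higher, 1 lower); of the higher ones 124 and 102 were among the 143 clones. The labels do not say that either numbering pairs the arrays, and the groups share only 2 numbers in each. Deviations from the group means correlated at 0.39 and 0.34 for the same description number, and at -0.34 and 0.04 for the same title number, where the 2 controls mirror each other by construction. Either block leaves 1 residual degree of freedom. The prior degrees of freedom were 63.9 by title number and 7.78 by description number, beside 7.21 in the main fit. Wounded 1 has no control of its title number and wounded 3 none of its description number, so that array adds nothing to the change. The 375 clones at an unadjusted p under 0.05 became 701 with the description block and 237 to 545 with an array left out.

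The 143 higher clones became 67 at 4-fold and 280 against control 2 alone, and 114 to 280 with an array left out. The 20 lower clones became 0 at 4-fold, 75 and 43 against control 2 or 3 alone, and 15 to 75 with an array left out. Without centring the unadjusted count split into 258 higher and 118 lower. Named clones kept their sign in all 15 settings, and so did Chlorophyla/bbindingprotein. Carbonic_anhydrase turned to 0.035 with the description block, and ran from -0.23 to 0.15 with an array left out. Adjusted p ran from 2.88e-10 to 1 for cLED8P10, 4.75e-11 to 1 for cLED19A6, 0.0272 to 1 for cLES3P5, 0.0931 to 1 for cLED32F16, 1.63e-06 to 0.953 for cLED6B5 and 1.39e-05 to 0.953 for cLEC6H7, lowest under the title block each time. Those lowest values rest on 1 residual and 63.9 prior degrees of freedom, without wounded 1 in the change. They are thus not evidence from all 5 arrays. The cause of these shifts was not tested.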

Other observations

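Rows marked as failed were outside the comparison. Of these 193 rows, 1 was at least 2-fold higher in the systemic wounded group without overlap (0.518%, beside 1.28% of the clones). The number lower was 0. Their log2 changes ran from -0.87 to 1.52 with a median of 0.03. When they and the blank were added to limma's fit, 0 of them had an adjusted p under 0.05 and 4 had an unadjusted p under 0.05.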
